A study of Homo sapiens with 2 samples.

Results

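The 9 genes described here are the receptor subunits, Janus kinases (JAKs) and STAT transcription factors that carry interferon signals from the cell surface to the nucleus: IFNAR1, IFNAR2, IFNGR1, IFNGR2, JAK1, JAK2, TYK2, STAT2 and STAT3. They were picked by gene symbol from a deposited table of 20289 genes, and the selection was made with earlier results of the same comparison known, so the genes were in part chosen by the very count ratios that are given below. The values are therefore a description of these genes and carry no test. All 9 were found in the table and all 9 passed the floor of a mean of 50 counts, as did 11530 genes in all.

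Messenger RNA was measured in MDA-MB-231, a long-established human line of triple-negative breast cancer with a mesenchymal character. One library was made from cells that received a negative control siRNA, the other from cells of that line that received an siRNA against the long non-coding RNA USP30-AS1. There was 1 library of each kind (23287817 and 19569214 counts), no time point or dose is given, and the cells carry no other stated alteration. The second is called the knockdown library after its label, but USP30-AS1 itself was not analysed here and the depth of silencing is not shown by these values. Since no culture was repeated, the intervals below are 95% exact intervals for counting error only. In such bulk RNA, fewer cells expressing a gene and less RNA per cell cannot be told apart.

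The markers fit a cultured line. The line's markers VIM (36576 and 43558 counts), EGFR (8182 and 8988), CD44 (3647 and 7554) and KRT18 (10933 and 14244) were abundant and all higher in the knockdown library after scaling, by 1.35-fold to 2.55-fold. PGR had 0 in both libraries, and ESR1 (9 and 13) and CDH1 (5 and 0) were at trace levels. ERBB2 was detected, at 1270 and 1127 counts. Of 10 leukocyte markers, 4 were at 0 in both libraries, PTPRC had 2 and 0 counts, and the only one past the floor was CD68, a lysosomal protein that many cell types express. The markers of fibroblasts past the floor were COL1A1 (170 and 213 counts) and PDGFRB (654 and 322), 2 of 8, with DCN and LUM at 0. Of 5 endothelial markers only PECAM1 passed it, and CDH5 (91 and 8) lay just under it. The summed level of the markers was 46.8 CPM (control) and 62.8 CPM (knockdown) for leukocytes, in the same order 34.9 and 28.1 CPM for fibroblasts, and 14.3 and 8.26 CPM for endothelial cells. Their part in the results was not tested.

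Type I interferons bind a receptor made of IFNAR1, which holds the kinase TYK2, and IFNAR2, which holds JAK1. The activated kinases phosphorylate STAT proteins, and STAT2 joins with the DNA-binding factor IRF9 in the complex that switches on antiviral genes through an element called ISRE. Type II interferon binds IFNGR1, which holds JAK1, and IFNGR2, which holds JAK2, and acts through STAT dimers at a different element, GAS. STAT3 takes signals mainly from cytokines of the interleukin-6 family, through the shared receptor chain gp130. Many cancer cell lines keep a standing level of type I signalling without added interferon.

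Within this set, STAT2 and IFNAR2 were lower in the knockdown library by about the same factor, while the partner subunit IFNAR1 was not. Of the 9 members, 2 (STAT2 and IFNAR2) were at least 1.5-fold lower and 0 were at least 1.5-fold higher, against 7.04% and 6.10% of the 11530 compared genes. None was at least 2-fold lower or higher, against 1.60% and 1.55% of compared genes. These folds rest on the contrast that entered the choice of genes, so nothing is read from the shares. The next member below the 1.5-fold line was IFNGR2, at 1.32-fold lower. Of the 9 log2 ratios 7 lay below 0, with a median of -0.24, where the median over all compared genes was -0.0036.

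**Figure D1:**
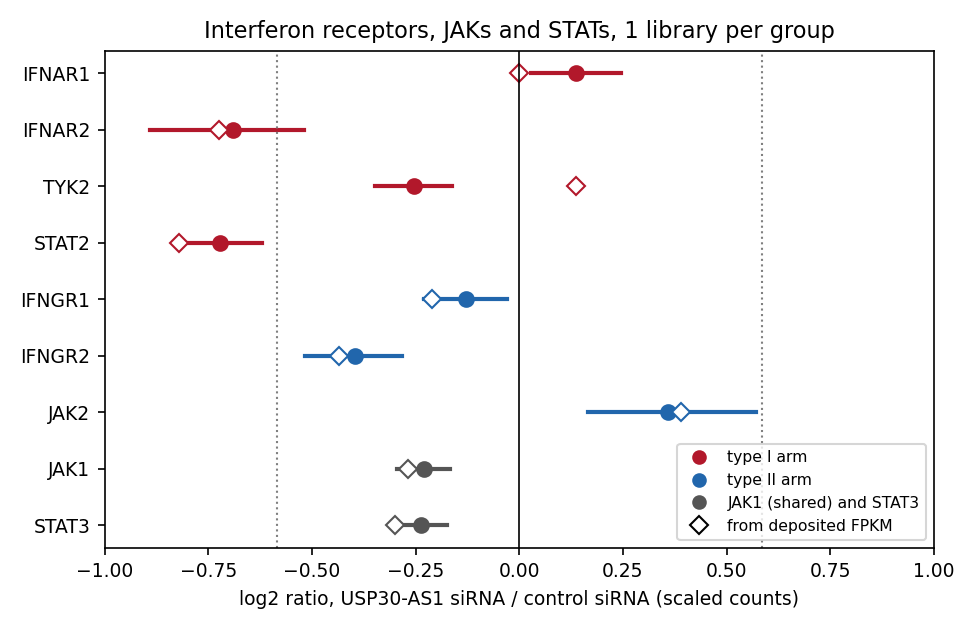
Log2 ratio of the knockdown over the control library for each member, from counts scaled for library size (filled circles, with 95% exact counting intervals) and from the deposited FPKM (open diamonds), 1 library per group; dotted lines mark 1.5-fold. STAT2 (-0.72) and IFNAR2 (-0.69) lie beyond the lower line, JAK2 (0.36) lies highest, and for TYK2 the circle and the diamond lie on opposite sides of 0.

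Among the receptor subunits of the type I arm, IFNAR2, the chain with the larger part in ligand binding, had 716 control counts against 357 after USP30-AS1 siRNA. Scaled for library size it was 1.63-fold lower (1.43 to 1.86; log2 ratio -0.69), at percentile 4.92 of all compared genes. IFNAR1, the chain that completes the receptor, had 1446 and 1292 counts and was 1.10-fold higher (1.02 to 1.19; log2 ratio 0.14). The paired chains thus lay on opposite sides of 0. In FPKM, which divides by transcript length, IFNAR1 was level (18.3 and 18.3), and IFNAR2 stood at 14.3 and 8.66. The excess of IFNAR1 over IFNAR2 mRNA needs no library scaling, because both genes are read in the same library. It went from 2.02 counts of IFNAR1 per count of IFNAR2 in the control to 3.62 in the knockdown library, a 1.79-fold larger ratio (1.54 to 2.08). Per transcript length the same ratio went from 1.28 to 2.11.

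In the type II receptor, both chains were lower. IFNGR1, which binds the ligand, had 1880 and 1396 counts, 1.09-fold lower (1.02 to 1.17; log2 ratio -0.13). IFNGR2, the accessory chain, had 1581 and 974 counts, 1.32-fold lower (1.22 to 1.43; log2 ratio -0.40). The accessory chain was thus lower by more than the ligand-binding chain. The ratio of IFNGR1 to IFNGR2 counts went from 1.19 to 1.43, a 1.21-fold larger ratio (1.08 to 1.34). In total, type I receptor mRNA against type II receptor mRNA was 0.625 counts per count in the control, against 0.696 with the siRNA to USP30-AS1, 1.11-fold higher (1.02 to 1.21). In FPKM that ratio was nearly level, at 0.380 and 0.391. The totals of the receptor chains thus shifted far less than the IFNAR1 to IFNAR2 ratio.

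The genes IFNAR2, IL10RB, IFNAR1 and IFNGR2 stand in a row on chromosome 21 (GRCh38), all on the plus strand. IFNAR2 spans 33229901 to 33265675, IL10RB 33266358 to 33310187, IFNAR1 33324477 to 33359862 and IFNGR2 33402896 to 33479348. IL10RB, the chain shared by the receptors of type III interferon and interleukin-10, had 951 and 445 counts and was 1.74-fold lower (1.55 to 1.95; log2 ratio -0.78). The neighbours IFNAR2 and IL10RB were lower by like amounts, and the count ratio between them was 0.753 and 0.802, a change whose interval holds 1 (1.07-fold, 0.896 to 1.27). IFNAR1, the next gene along, stood apart at 0.14. IFNGR2 was at -0.40. TMEM50B (33432485 to 33480011) lies on the minus strand, mostly within the span of IFNGR2. It had 570 and 229 counts (2.02-fold lower, 1.73 to 2.37). The genes further out included CFAP298 (0.52) on one side and SON (-0.05) on the other. Values of both signs thus stood next to each other in the row.

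**Figure D2:**
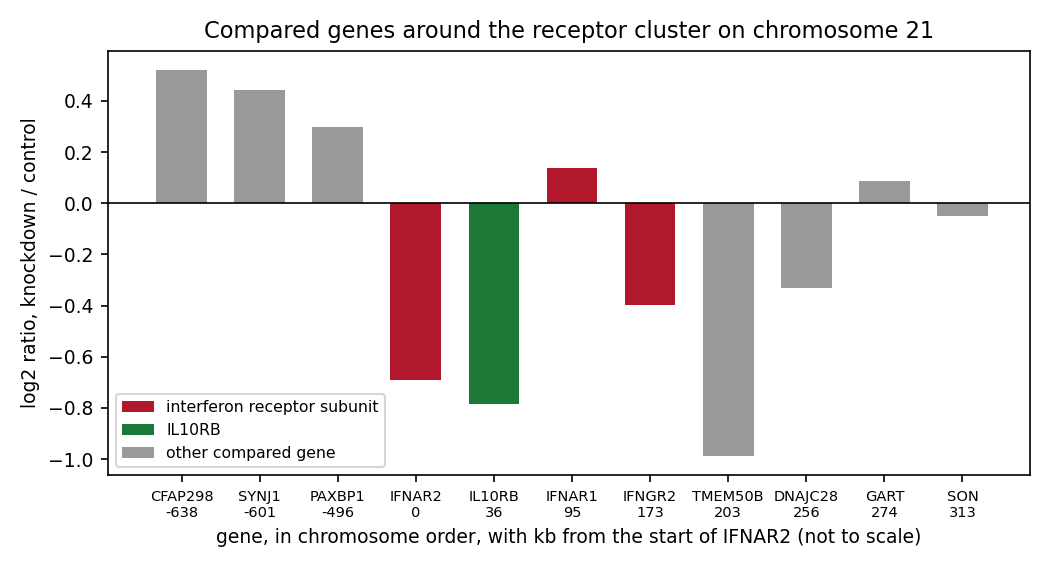
Log2 ratio (knockdown over control, 1 library each) of the named compared genes around the receptor cluster on chromosome 21, in chromosome order with the distance in kb from the start of IFNAR2. IFNAR2 (-0.69), IL10RB (-0.78), IFNGR2 (-0.40) and TMEM50B (-0.99) lie below 0, with IFNAR1 (0.14) above it between them.

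Overlapping genes limit the values of IFNAR2 and IFNGR2. An unnamed entry of the table (129 and 85 counts) reads through from IFNAR2 into IL10RB and shares 2038 exonic bases with IFNAR2. Added to IFNAR2 it gives 845 and 442 counts, 1.55-fold lower (1.38 to 1.75). The counting interval holds 1.5-fold both for this sum and for IFNAR2 alone, so the side of that line is not settled by these counts. IL10RB-DT, a gene antisense to IFNAR2 that was not analysed here, shares 1803 exonic bases with it. IFNGR2 shares 380 exonic bases with TMEM50B on the opposite strand. No source used here states the strand setting of the counting, so reads from the overlaps with IL10RB-DT and TMEM50B cannot be told apart from those of IFNAR2 and IFNGR2. TMEM50B was lower by more than IFNGR2.

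The type I receptor chains also differ in short words of their mRNA ends. Earlier work on these same counts had picked words of 7 bases in 3' UTRs whose carriers had lower ratios (AACTCCA and ACTCCAA, which overlap with a shift of 1 base) or higher ratios (CCTAAGA and CTAAGAA, likewise). They were searched here on the sense strand, from the stop codon to the transcript end, in 1 GENCODE transcript per gene. Of 11409 compared genes, 16.5% carry a word of the first pair and 16.8% one of the second. Among the 9 members, IFNAR2 alone carries the first, IFNAR1 alone carries the second, and the other 7 carry neither. The sites of these chains, and those of gp130 and PIAS3 described below, are shown with the word in capitals, 5' to 3'. In the first IL6ST site only ACTCCAA is in capitals, and the base before it also completes AACTCCA.
IFNAR2, chr21:33263489-33263518, plus strand: ataatgagatgACTCCAAaactattgaatg
IFNAR1, chr21:33358394-33358423, plus strand: ccagatataatCTAAGAAtttatatgaaag
IL6ST (gp130), chr5:55936714-55936743, minus strand: atgttgacataACTCCAAatgttatattaa
IL6ST (gp130), chr5:55939499-55939528, minus strand: agaatagaaagCTAAGAAaacttggtatac
PIAS3, chr1:145848859-145848888, minus strand: aaaaccaaaatACTCCAAagatgacttccc
In the IFNAR2 transcript used, the word begins at base 3 counted from the first base of the stop codon, so its first letter is the last base of that codon. It lies after the stop codon or overlaps it in 3 of 5 coding IFNAR2 transcripts that reach past the stop. In IFNAR1 the word begins at base 2859 of 4316, in the only transcript searched, which is 6139 bases long. The IFNAR1 length implied by the authors' FPKM, as described below for TYK2, was shorter, at 3399 bases (control) and 3616 (knockdown). Whether the counted IFNAR1 mRNA reaches the word is thus not shown. Over all compared genes the median log2 ratio was -0.19 for carriers of the first pair alone, 0.16 for carriers of the second alone and 0.0018 for carriers of neither. The words were picked on these ratios, so the medians describe the choice and support nothing. The part of these words in the values of IFNAR1 and IFNAR2 was not tested. Carriers did not all follow the medians. CSF2RA (1.00), IFNLR1 (0.24) and PIAS2 (0.13) carry a word of the first pair alone and lay above 0, while STAT2 (-0.72) and IL10RB (-0.78) carry neither. The value of CSF2RA is uncertain, as described below. Other carriers of the first pair alone, such as CCND1 (-1.06) and PIAS3 (-1.16), lay below 0. These genes are examples and not a count of carriers.

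Of the Janus kinases, JAK1, which serves both receptors, was the most abundant, at 4738 and 3280 counts (1.17-fold lower, 1.12 to 1.23). JAK2, the partner of IFNGR2, had 395 and 414 counts, 1.29-fold higher (1.12 to 1.48; log2 ratio 0.36), the highest ratio of the 9. TYK2, the partner of IFNAR1, had 2317 and 1577 counts, 1.19-fold lower (1.12 to 1.27; log2 ratio -0.25). In counts, the kinase held by IFNAR1 was thus lower and the one held by IFNGR2 higher, though TYK2 changed sign in FPKM. TYK2 reads per JAK2 read went from 5.87 to 3.81, a 1.54-fold smaller ratio (1.32 to 1.80). Per transcript length the ratio went from 9.34 to 7.83, a smaller step.

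TYK2 changed sign between the scales. Its FPKM was 28.1 with control siRNA and 30.9 with USP30-AS1 siRNA (log2 ratio 0.14), and the authors' deposited table likewise lists a log2 fold of 0.14. Dividing counts by FPKM and library total gives the transcript length that the authors' FPKM implies, which was 3538 bases for the control and 2607 for the knockdown library. Only 1.05% of compared genes had an implied length ratio at or below that of TYK2 (log2 -0.44), and 78.5% had one within 0.1 of 0. The other members stayed between -0.07 (JAK2) and 0.09 (IFNAR1). GENCODE lists 9 coding TYK2 transcripts of 495 to 4347 bases. Which of them were present in each library is not shown by a gene-level table, so the direction for TYK2 is uncertain.

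Of the STATs, STAT2 had the lowest ratio of all 9 members. It had 2212 control counts against 1086 with the USP30-AS1 siRNA, 1.65-fold lower (1.54 to 1.78; log2 ratio -0.72), at percentile 4.28 of compared genes. In FPKM it stood at 23.3 and 13.2 (log2 ratio -0.82). STAT3 had 4969 and 3425 counts, 1.18-fold lower (1.13 to 1.23; log2 ratio -0.24). STAT2 counts per STAT3 count went from 0.445 to 0.317, a 1.40-fold smaller ratio (1.29 to 1.53), so STAT2 was lower also relative to STAT3. STAT2 and IFNAR2 kept step, with 0.324 and 0.329 IFNAR2 counts per STAT2 count (1.02-fold, 0.875 to 1.18). JAK1 and STAT3 did so too, with 0.954 and 0.958 (1.00-fold, 0.943 to 1.07). These intervals leave room for differences of up to 1.18-fold and 1.07-fold.

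IRF9, the partner of STAT2, was lower still, with 1637 and 560 counts (2.37-fold lower, 2.16 to 2.62; log2 ratio -1.23). STAT2 counts per IRF9 count went from 1.35 to 1.94, a 1.44-fold larger ratio (1.27 to 1.62). Of the other listed partners, the coactivators EP300 (-0.33) and CREBBP (-0.31) lay below 0, and NMI (0.06) and the scaffold RACK1 (0.12) lay near it. Of the remaining JAK and STAT genes, STAT5B (1827 and 1281 counts, -0.21) and STAT5A (342 and 245, -0.18), which lie beside STAT3 on chromosome 17, had ratios close to that of STAT3. STAT6 was at 0.11. JAK3 (57 and 20 counts) and STAT4 (44 and 40), which are largely leukocyte genes, were under the floor.

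**Figure D3:**
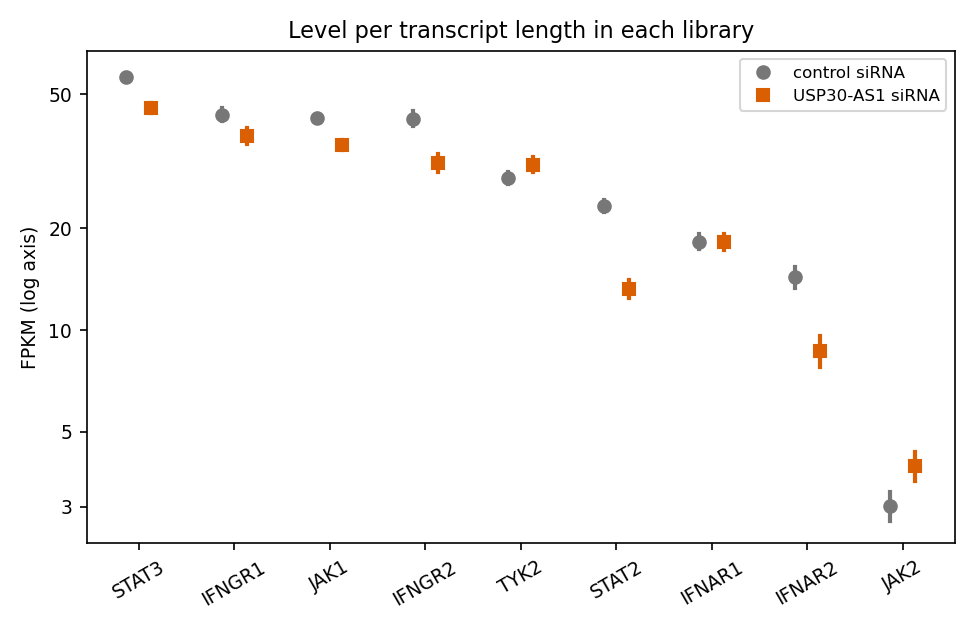
FPKM of each member (log axis) in the control (grey circles) and the knockdown library (orange squares), with bars for the 95% exact Poisson counting interval, 1 library per group. STAT2 goes from 23.3 to 13.2 and passes below IFNAR1, which stays at 18.3, and JAK2 is the lowest in both, at 3.01 and 3.95.

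Set in order of level per transcript length, STAT3 led in both libraries (56.1 and 45.6 FPKM) and JAK2 came last (3.01 and 3.95 FPKM). In the control library IFNGR1 (43.4), JAK1 (42.4) and IFNGR2 (42.3 FPKM) followed STAT3 with overlapping counting intervals, so their order is not resolved. TYK2 (28.1), STAT2 (23.3), IFNAR1 (18.3) and IFNAR2 (14.3 FPKM) came next, each apart from its neighbour by more than counting error. In the knockdown library IFNGR1 (37.5) and JAK1 (35.2 FPKM) had overlapping intervals, and so had IFNGR2 (31.3) and TYK2 (30.9 FPKM). IFNAR1 (18.3 FPKM) then stood above STAT2 (13.2 FPKM), the reverse of the control library. Both type II receptor chains were more abundant than both type I chains in each library.

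Taken by arm, the 4 genes of the type I arm (IFNAR1, IFNAR2, TYK2 and STAT2) had a median log2 ratio of -0.47 and the 3 of the type II arm (IFNGR1, IFNGR2 and JAK2) one of -0.13, a difference of -0.34. The arms overlapped, from -0.72 to 0.14 and from -0.40 to 0.36. On the FPKM scale the medians were -0.36 and -0.21 and the difference -0.15. TYK2 lay above 0 on that scale, and IFNGR1, which sets the type II median, lay lower than in counts (-0.21 against -0.13). In counts the type I median lay midway between IFNAR2 (-0.69) and TYK2 (-0.25), and the direction of TYK2 is uncertain. In FPKM it lay midway between IFNAR2 (-0.72) and IFNAR1 (-0.00079).

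The promoters of STAT2 and IRF9, the members of the antiviral transcription complex that were lower together, are shown for the 250 bases before the RefSeq start (GRCh38.p14), 5' to 3' on the gene's strand, with matches to GAS (TTCNNNGAA) in capitals.
STAT2, chr12:56360108-56360357, minus strand: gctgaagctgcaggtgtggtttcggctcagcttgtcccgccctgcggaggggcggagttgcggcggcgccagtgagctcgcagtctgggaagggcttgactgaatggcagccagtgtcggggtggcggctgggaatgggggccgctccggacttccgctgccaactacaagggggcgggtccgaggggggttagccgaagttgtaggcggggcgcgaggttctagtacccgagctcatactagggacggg
IRF9, chr14:24161015-24161264, plus strand: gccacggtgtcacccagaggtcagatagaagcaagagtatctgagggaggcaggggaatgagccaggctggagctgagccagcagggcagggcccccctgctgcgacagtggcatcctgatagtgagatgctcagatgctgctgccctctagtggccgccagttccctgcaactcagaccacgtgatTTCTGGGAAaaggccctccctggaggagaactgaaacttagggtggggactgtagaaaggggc
IRF9 has 1 GAS match, 63 bases before its RefSeq start, and STAT2 has none. GENCODE places these starts elsewhere, with IRF9 beginning at 24161053 and STAT2, on the minus strand, at 56360155. Both positions fall inside the printed stretches. By GENCODE the IRF9 match thus lies downstream of the start, within the annotated gene. RefSeq promoter windows were found for 8 of the 9 members (all but IFNAR2), from 250 bases before to 50 after each listed start. None of these windows holds GAS or the core of ISRE (GAAA, any 2 bases, GAAA), searched on both strands. Of 35116 human windows of that length, 7.66% hold GAS and 3.57% the ISRE core. The GC box GGGCGG, whose matches in IRF9 do not overlap the GAS match, is in 45.0% of windows. STAT2 has 3 GC boxes, STAT3 2, IFNGR2 5 and TYK2 0, each with a single listed start. In members with several listed starts the number differed by start, at 6 or 0 in JAK1, 3 or 0 in IFNAR1, 2 or 1 in IFNGR1 and 1 or 0 in JAK2. These are letter matches within a short window and do not show binding.

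Interferon mRNAs, the ligands of these receptors, were nearly absent. Of 21 listed type I, II and III interferon genes, 19 had 0 counts in both libraries, IFNL1 had 5 and 5 counts, and IFNL2 had 0 and 1. With 0 counts, a level of up to 0.129 CPM (control) or 0.153 CPM (USP30-AS1 siRNA) remains possible, from 3 counts of the library total. IFNB1 and IFNG were among those at 0. IFNLR1, the specific chain of the type III receptor, had 259 and 251 counts (1.19-fold higher, 0.999 to 1.42), an interval that includes no difference, while its partner chain IL10RB was lower.

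Regulators that act on the receptors and kinases were mostly level. Of 17 compared negative regulators, 1 was at least 2-fold lower and 0 were at least 2-fold higher (1.60% and 1.55% of all compared genes). Their median log2 ratio was 0.0068 (-0.04 under library totals alone and -0.016 in FPKM). The exception was PIAS3, an inhibitor of STAT3 with a site shown above, at 1463 and 528 counts (2.25-fold lower, 2.04 to 2.49). PTPN1 (0.31), PTPN11 (0.26) and SOCS7 (-0.31) came next in size, and PTPN1 is a phosphatase of JAK2 and TYK2. SOCS3, a feedback inhibitor induced by STAT3, was at 0.05 (589 and 496 counts). USP18, which blocks IFNAR2 signalling, had 240 and 228 counts (1.17-fold higher, 0.971 to 1.41). SOCS3 and USP18 were named after their values were seen. All 6 listed genes of type I receptor turnover lay above 0, none at 1.5-fold, where 5722 of all 11530 compared genes lay above 0. The 6 were CSNK1A1 (0.25), CUL1 (0.18), PRKD2 (0.15), SKP1 (0.13), BTRC (0.02) and FBXW11 (0.01). In FPKM BTRC and FBXW11 lay below 0 (-0.03 and -0.05).

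On the cytokine side of STAT3, IL6ST, which encodes the shared chain gp130, had 5738 and 2335 counts. It was 2.0-fold lower (1.90 to 2.10; log2 ratio -0.99), and carries words of both pairs. The cytokine IL11 had 1890 and 930 counts (1.65-fold lower, 1.53 to 1.79), its receptor IL11RA 91 and 45 (1.64-fold lower, 1.14 to 2.40), and the ligand CLCF1 221 and 278 (1.55-fold higher, 1.29 to 1.86). Of the 10 compared genes of this list, 3 were at least 1.5-fold lower and 1 higher (7.04% and 6.10% of all compared genes), and the median was -0.28. Its 2-fold count is 0, or 1 with IL6ST in FPKM or under scaling by library totals alone. Listed STAT3 target genes went both ways. Of 14 compared, 2 were at least 2-fold lower and 0 higher (1.60% and 1.55% of all compared genes). At least 1.5-fold lower were 2 and higher 3, and the median was 0.03 (-0.02 under library totals alone and -0.0051 in FPKM). With an added 2 CPM, or a floor of 200 counts, 1 was 2-fold lower. CEBPD was 2.45-fold lower (157 and 52 counts; 1.78 to 3.42) and CCND1, which encodes cyclin D1, 2.09-fold lower (12058 and 4686 counts; 2.02 to 2.16). MCL1, a survival factor, was 1.85-fold (1.78 to 1.92) and the AP-1 subunit JUNB 1.58-fold higher (1.41 to 1.77).

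Among genes that respond mainly to type I interferon, several antiviral genes had far fewer counts in the knockdown library. Of 27 compared type I response genes, 9 were at least 2-fold lower and 0 higher (1.60% and 1.55% of all compared genes), and 11 were at least 1.5-fold lower and 1 higher (7.04% and 6.10%). The median log2 ratio was -0.44, and -0.0036 over all compared genes. The ratios largest in size were those of IFI44L (735 and 53 counts, -3.28), BST2 (328 and 22, -3.13), IFITM1 (243 and 36, -2.18) and MX1 (1851 and 338, -2.12). The list did not move as a whole, with 20 genes below 0 and 7 above it. OASL (282 and 430 counts, 0.88) was the highest. Of 11 compared type II response genes, 0 were at least 2-fold lower and 0 higher, and 0 were at least 1.5-fold lower and 2 higher. Their median was 0.03 (-0.01 under library totals alone and -0.03 in FPKM). GBP3 (937 and 1316 counts, 0.78), IFI30 (527 and 694, 0.68) and GBP2 (1637 and 1936, 0.54) lay highest, and IRF1 (733 and 518) lay at -0.20. The lists share inducers in part, since many of these genes answer to both interferons, and they were drawn up with the lower type I genes known. The difference between the lists was not tested.

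**Figure D4:**
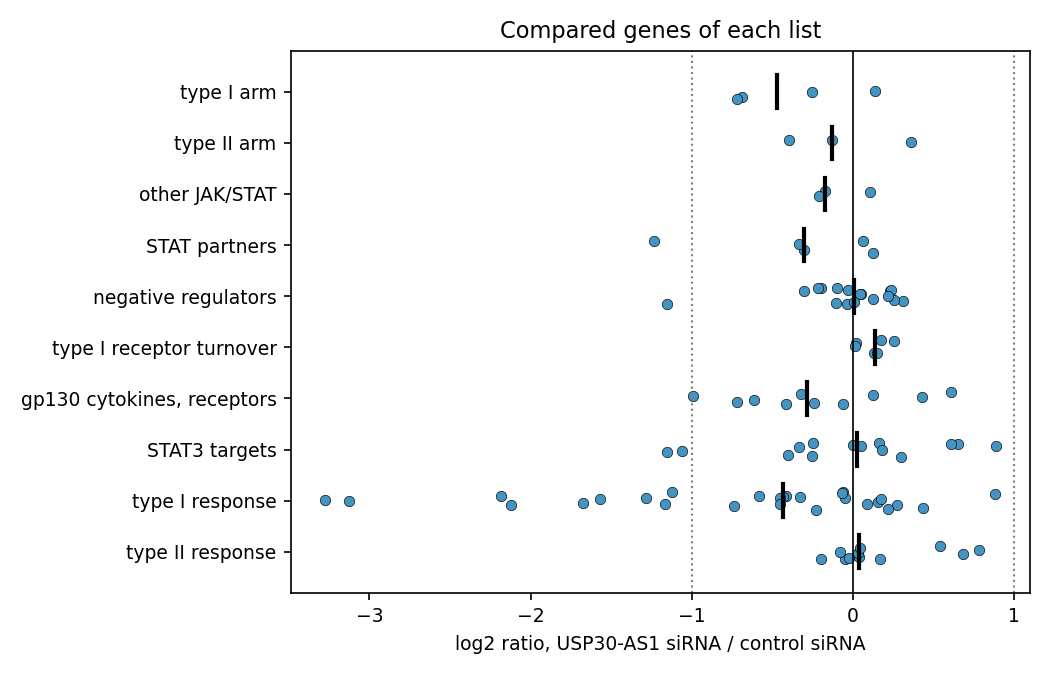
Log2 ratio of every compared gene in each list (points, spread vertically for legibility) with the list median (bar); dotted lines mark 2-fold, 1 library per group. The type I response genes lie between -3.28 and 0.88 with a median of -0.44. The type II response genes lie between -0.20 and 0.78 with a median of 0.03.

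In the JAK-STAT pathway of the deposited annotation, 80 of 171 genes were compared, the 9 members among them. At least 2-fold lower were 5 and higher 4, where 1.60% and 1.55% of all compared genes were, with a median of -0.17. The lowest were IRF9, FHL1 (143 and 46 counts, -1.18), PIAS3 and CCND1. The highest were receptor chains of other cytokines, CRLF2 (31 and 134 counts, 2.04), IL27RA (263 and 560, 1.35), IL15RA (139 and 250, 1.08) and CSF2RA (189 and 317, 1.00). CRLF2 and CSF2RA lie in the region shared by the X and Y chromosomes, where the counting can meet identical copies, so their values are uncertain. Without the 9 members the pathway median was -0.14 over 71 genes.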

How the data were processed

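The members and gene lists were chosen with earlier results of these data known. Poly(A) libraries were made with a NEBNext Ultra kit, per the labels' protocols. Tools listed in the submitters' processing notes are RSEM, HISAT2, fastp 0.18.0 and StringTie 1.3.1, with build GRCh38. The role of each, the annotation release and the strand setting are not stated there. The authors deposited estimated counts per gene, not normalized, with RSEM among their tools. Of these, 12.0% and 11.4% of values were not whole and all were rounded. FPKM, per the file headers, was scaled to transcript length and sequencing depth before deposit. The authors' own log2 value per gene is the ratio of their FPKM. The authors' deposited p-values, from a test that is not stated, were not used. The column named Si-NC was taken as control and the remaining one, Si-179, a name the labels do not explain, as knockdown, since the table is titled for that comparison.

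Counts were scaled with TMM factors (edgeR 4.0.16, R 4.3.3) to library size (CPM). Log2 ratios are of CPM + 0.5, knockdown over control, and folds are without the 0.5. Genes with a mean of at least 50 counts were compared. No test was possible without replicates. Folds carry 95% exact Clopper-Pearson intervals and ratios between genes 95% exact conditional intervals, for counting error only, and PCR copies are not independent molecules. Named genes were all members, up to 4 genes of each list with the largest ratios, all genes of lists of up to 6, and the 4 highest and 4 lowest of the JAK-STAT pathway. Chromosome neighbours and OASL were added after values were seen. Gene positions, transcripts and sites are from GENCODE 29 (GRCh38; 20171 identifiers matched), promoters from RefSeq (GRCh38.p14). The steps were tested on simulated data. Alternatives were DESeq2 1.42.0 size factors, library totals, FPKM, other added constants and other floors. Python 3.11.15 was used.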

Additional observations from a re-analysis of the deposited data

How the results depend on the processing

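Across 7 alternatives the counts of members past 1.5-fold and 2-fold did not change, though the counting interval of IFNAR2 holds 1.5-fold, and STAT2 and IFNAR2 kept their direction in each. On the deposited FPKM, IFNAR1 moved to -0.00079 and TYK2 to 0.14, the type I arm median to -0.36 and its difference from the type II arm to -0.15. Under library totals alone IFNAR1 was at 0.09 and TYK2 at -0.30. By definition, the step from there to FPKM is the log2 implied length ratio with its sign turned. That ratio was 0.09 for IFNAR1 and -0.44 for TYK2. Why the implied lengths differed between the libraries was not tested. Over all genes, 1233 were at least 1.5-fold lower with no floor, against 812 in the main setting, because more low genes then enter. At least 2-fold lower were 118 (an added 2 CPM) or 111 (a floor of 200), against 185, because fewer low genes can pass. With IFNAR2 summed with the readthrough entry, an alternative added after the data were seen, its ratio was -0.62. In the JAK-STAT pathway an added 2 CPM left 3 genes 2-fold lower and 2 higher, and a floor of 200 left 2 higher. No replicate could be left out with 1 library per group. No paired analysis was possible because each group has 1 library. Depth limits JAK2 most among the members, at 395 and 414 counts.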
